A study of Mus musculus with 12 samples.

Results

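NP@M was compared with PBS, the vehicle, in mouse cells, over 7648 of the 11669 genes in the deposited expression table. These are the genes with a value of at least 1 FPKM (read fragments scaled by gene length and library depth) in at least 3 of the 6 libraries compared. The 6 libraries, 3 exposed to PBS and 3 to NP@M, are part of a series of 12 in 4 groups. The series concerns nanodrugs coated with an engineered cancer cell membrane that are aimed at cyclin-dependent kinases and used with an antibody against PD-L1. Both groups carry the name TAMC under the cell line tag, marrow as tissue and immune cell as cell type, and both were exposed for 24 h before total RNA was extracted. The labels name neither a strain nor an age, do not spell out TAMC, NP or M, and give no dose. NP@M differs in name from the other particle groups by having no D, and the labels do not say what D stands for. The protocol text attached to the samples describes extraction from retina, against the marrow given as tissue. Whether libraries of a group stem from separate cultures or animals is not stated, so the p-values reflect library-to-library spread alone, which may be technical.

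Myeloid cells of the marrow include monocytes, macrophages and granulocytes, which take up particles through scavenger, Fc and complement receptors and digest them in lysosomes. Contact with particles or with material of dead cells can switch on immediate early transcription factors such as Fos within minutes, inflammatory cytokines under NF-kB, and interferon-stimulated genes. Myeloid cells can also display the ligands PD-L1 (Cd274) and PD-L2 (Pdcd1lg2), which restrain T cells through PD-1.

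Some markers of monocytes and macrophages and of granulocytes were abundant. A mean of at least 50 FPKM was reached by 5 of 17 and by 7 of 18 listed markers. Of 17 listed monocyte and macrophage markers, 15 were tested. The FPKM values of all 17 summed to 2940 to 4240 in the PBS libraries and 2890 to 3540 in the NP@M libraries. Lyz2, which encodes lysozyme, made up most of these sums, at 1812 to 3138 FPKM in PBS and 1937 to 2317 in NP@M. Other markers were low, such as the macrophage marker Ms4a7 at 1.84 to 3 FPKM and the granulocyte marker Mpo at 0.924 to 3.06. Of 18 neutrophil and granulocyte precursor markers, 16 were tested, with sums of 2270 to 2740 in PBS and 1730 to 2420 in NP@M. Of 9 platelet and megakaryocyte markers 4 were tested, and only 2, the chemokine genes Pf4 and Ppbp, had a mean of at least 50 FPKM. The sums over this list differed between the libraries, from 495 to 1220 FPKM. Markers of most other cells were low or not in the table. Only 2 of 12 T and NK cell markers were in the table, and they summed to at most 0.447 FPKM. For fibroblasts, 3 of 10 markers were present, with sums of at most 0.157. Among retina markers, 0 of 12 were in the table, for which the way genes were picked is not given in the sources used here. These sums therefore say nothing about the listed markers that are missing, and they do not show that such cells were absent. In bulk RNA such as this, fewer cells of a type and less RNA per cell cannot be told apart.

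PBS replicate 3 and NP@M replicate 2 differed from their group mates more than the groups differed from each other. Across the tested genes the log2 values of these 2 libraries correlated with each other at a Pearson r of 0.967, while their correlations with the other 4 libraries lay between 0.796 and 0.885. The other 4 libraries correlated at 0.984 to 0.994 with each other, whichever group they belonged to. Genes are not independent replicates, so these correlations are descriptions. Of the genes in the table, 9.31% were at 0 in PBS replicate 3 and 9.11% in NP@M replicate 2, against 2.65% to 2.96% in the others. Over the genes in the table, 14.4 M reads were recovered for PBS replicate 3, 15.2 M for NP@M replicate 2 and 14.7 M to 16.2 M for the other 4. If the smallest step of the values is 1 read, the scaling used totals of 31.6 M for PBS replicate 3, the lowest. It used 35.2 M for NP@M replicate 2 and 34.4 M to 38.1 M for the other 4. The recovered reads are thus only a part of each library. Results are therefore given with and without these 2 libraries.

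In PBS replicate 3, 1120 of the 7648 tested genes (14.6%) lay at least 2-fold below both mates on the log2(FPKM + 1) scale and 419 (5.48%) at least 2-fold above. In NP@M replicate 2 the counts were 754 (9.86%) below and 251 (3.28%) above. Each of the other 4 libraries had between 0 and 7 such genes in a direction. The genes were largely shared. Of those below their mates, 607 were in both lists, which is 54.2% of the PBS replicate 3 list and 80.5% of the NP@M replicate 2 list. Of those above, 178 were in both, 42.5% and 70.9% of the lists. In 0 genes did the 2 libraries move in opposite directions past that fold. Over all tested genes, the deviation of PBS replicate 3 from its mates correlated with that of NP@M replicate 2 at a Pearson r of 0.88, and these deviations share no library.

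**Figure D1:**
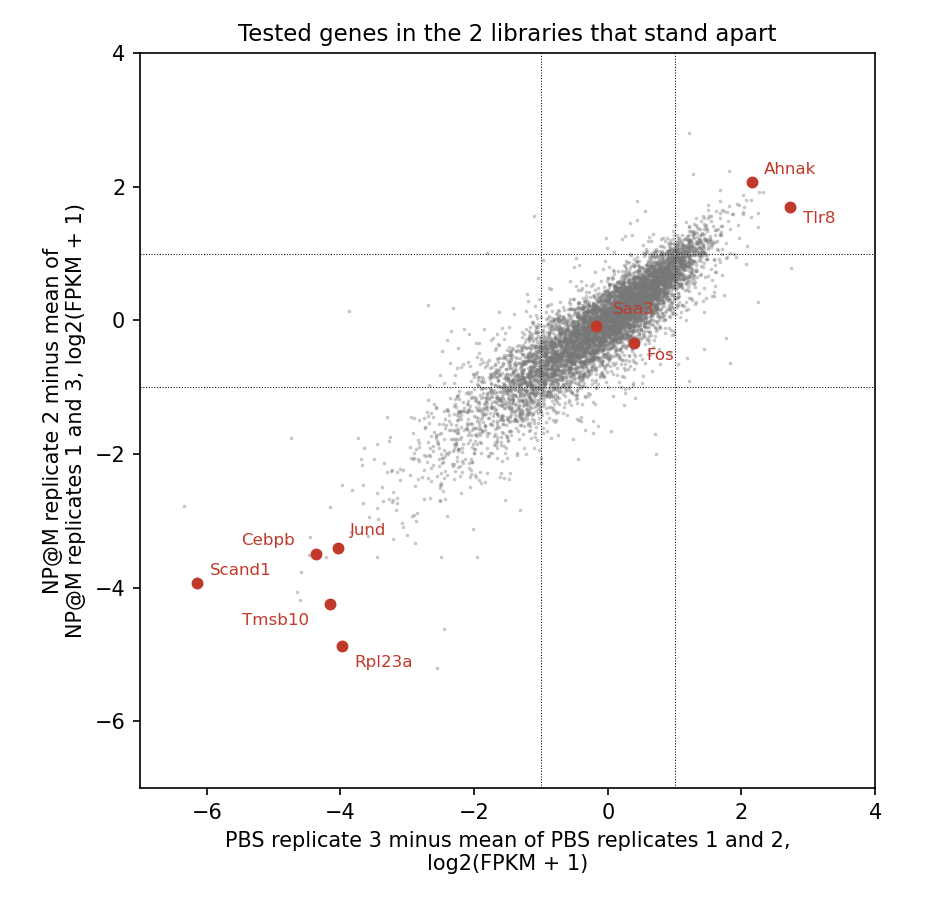
Each grey point is 1 of the 7648 tested genes, placed by its log2(FPKM + 1) in PBS replicate 3 minus the mean of PBS replicates 1 and 2 (horizontal) and in NP@M replicate 2 minus the mean of NP@M replicates 1 and 3 (vertical), with dotted lines at 2-fold. The points follow the diagonal (Pearson r 0.88), with Scand1 at -6.14 and -3.93 and Tlr8 at 2.73 and 1.70, while Saa3 and Fos lie near the centre.

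The genes that were low in both libraries mostly had short, GC-rich transcripts, and those that were high mostly long, AT-rich ones. There were exceptions, of which a few are given here. The mitochondrial tRNA gene mt-Tn (33.8% GC), Rpl23a (48.6% GC) and 6 of 10 mitochondrially encoded genes (median GC content 37.4%) were low in both. The pseudogene Ldha-ps2 (1057 bp, 50.8% GC) and Lrp1 (57.9% GC) were high in both. The stretches shown here are the last 90 coding bases before the stop codon, in the sense of the transcript and with G and C in capitals, from GENCODE M21 on GRCm38. Scand1, Cebpb and Jund stand for the genes low in both libraries, and Tlr8 and Tlr13 for those high in both. These examples were chosen after their values were seen. The Scand1 stretch lies in exon 2 (chr2:156311923-156312012, minus strand), the Cebpb stretch in exon 1 (chr2:167689820-167689909, plus strand) and the Jund stretch in exon 1 (chr8:70699991-70700080, plus strand). The Tlr8 stretch lies in exon 2 (chrX:167242757-167242846, minus strand) and the Tlr13 stretch in exon 3 (chrX:106159542-106159631, plus strand).
Scand1: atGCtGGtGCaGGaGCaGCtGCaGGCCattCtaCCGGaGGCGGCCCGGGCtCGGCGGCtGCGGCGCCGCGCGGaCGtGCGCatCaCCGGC
Cebpb: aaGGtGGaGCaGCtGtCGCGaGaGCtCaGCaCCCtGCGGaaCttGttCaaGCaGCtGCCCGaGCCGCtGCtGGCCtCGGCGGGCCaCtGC
Jund: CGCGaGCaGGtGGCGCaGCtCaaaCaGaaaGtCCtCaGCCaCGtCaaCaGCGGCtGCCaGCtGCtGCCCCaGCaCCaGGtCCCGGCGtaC
Tlr8: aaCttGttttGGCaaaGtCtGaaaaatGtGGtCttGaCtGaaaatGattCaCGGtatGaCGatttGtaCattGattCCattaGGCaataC
Tlr13: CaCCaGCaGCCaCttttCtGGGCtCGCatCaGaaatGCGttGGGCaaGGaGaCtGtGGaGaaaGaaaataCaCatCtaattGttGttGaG
G and C make up 75.6% of the Scand1 stretch, 67.8% of that of Cebpb and 66.7% of that of Jund. They make up 35.6% of the Tlr8 stretch and 46.7% of the Tlr13 stretch. Over the longest transcript the GC content was 68.4% for Scand1, 67.2% for Cebpb and 67.1% for Jund, against 40.1% for Tlr8 and 43.6% for Tlr13, with a median of 50.2% over all tested genes.

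Scand1, which encodes a SCAN domain protein, stood at 90.7 and 84.1 FPKM in PBS replicates 1 and 2 and at 0.250 in PBS replicate 3. In NP@M it stood at 68.9, 2.92 and 50.3 in replicates 1, 2 and 3. Cebpb, a transcription factor of myeloid differentiation and emergency granulopoiesis, stood at 320, 302 and 14.0 FPKM in PBS and 300, 22.3 and 227 in NP@M. Both genes were low in the same pair of libraries, 1 from each group, and their groups overlapped. Jund, a partner of Fos in the AP-1 complex, stood at 36.7, 32.6 and 1.16 FPKM in PBS and 34.9, 2.13 and 29.5 in NP@M. Other genes with the widest gap below the nearer mate were the thymosin gene Tmsb10, which binds actin monomers (145, 118 and 6.34 FPKM in PBS; 128, 4.81 and 91.9 in NP@M), the ribosomal protein gene Rpl23a (130, 104 and 6.42; 120, 2.79 and 99.5), Ptms, Ppp1r14b, Rpl41, Tmem160 and Hcfc1r1. Ribosomal protein genes and Tmsb10 have processed copies elsewhere in the genome that can share reads.

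Tlr8, an endosomal receptor for RNA, stood at 6.05, 9.23 and 55.2 FPKM in PBS and 6.73, 27.6 and 9 in NP@M. Tlr13, an endosomal receptor for bacterial ribosomal RNA, stood at 16.4, 22.2 and 83.8 FPKM in PBS and 19.8, 47.5 and 23 in NP@M. Both receptors were highest in PBS replicate 3 and next highest in NP@M replicate 2. Abca1, which exports cholesterol from macrophages, had the same pattern, at 15.8, 23.9 and 67.4 FPKM in PBS and 17.1, 56.0 and 17.6 in NP@M. The very large proteins Ahnak, Vps13c, Rnf213 and Lyst, the proteoglycan gene Vcan and the deubiquitinase gene Usp9x were also among those with the widest gap above the nearer mate. Ahnak stood at 12.1, 16.3 and 65.6 FPKM in PBS and 12.3, 58.5 and 14.1 in NP@M. Some tested genes were at 0 in 1 of these libraries although both mates had at least 20 reads, 36 of them in PBS replicate 3 and 33 in NP@M replicate 2. No tested gene was in that state in the other 4 libraries.

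The pattern ran through all tested genes rather than a few. When the genes were divided into deciles by GC content, the median deviation of PBS replicate 3 from its mates went from 0.64 in the decile poorest in GC to -1.07 in the richest, on the log2 scale. That of NP@M replicate 2 went from 0.44 to -0.75. By gene length, PBS replicate 3 went from -1.04 in the shortest decile to 0.68 in the longest and NP@M replicate 2 from -0.85 to 0.60. In the decile richest in GC, 48.3% of the genes lay at least 2-fold below both mates in PBS replicate 3 and 30.5% in NP@M replicate 2. Genes below both mates in PBS replicate 3 had a median length of 1880 bp and a median GC content of 55.8%, and those above both mates 7290 bp and 44.3%. GC content and length together accounted for 51.4% of the variance of the deviations in PBS replicate 3 and 46.7% in NP@M replicate 2. After a trend over both was removed from each library, these 2 libraries still correlated more with each other (0.971) than with the other 4 (0.900 to 0.935). The part of RNA quality or library preparation in this was not tested.

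**Figure D2:**
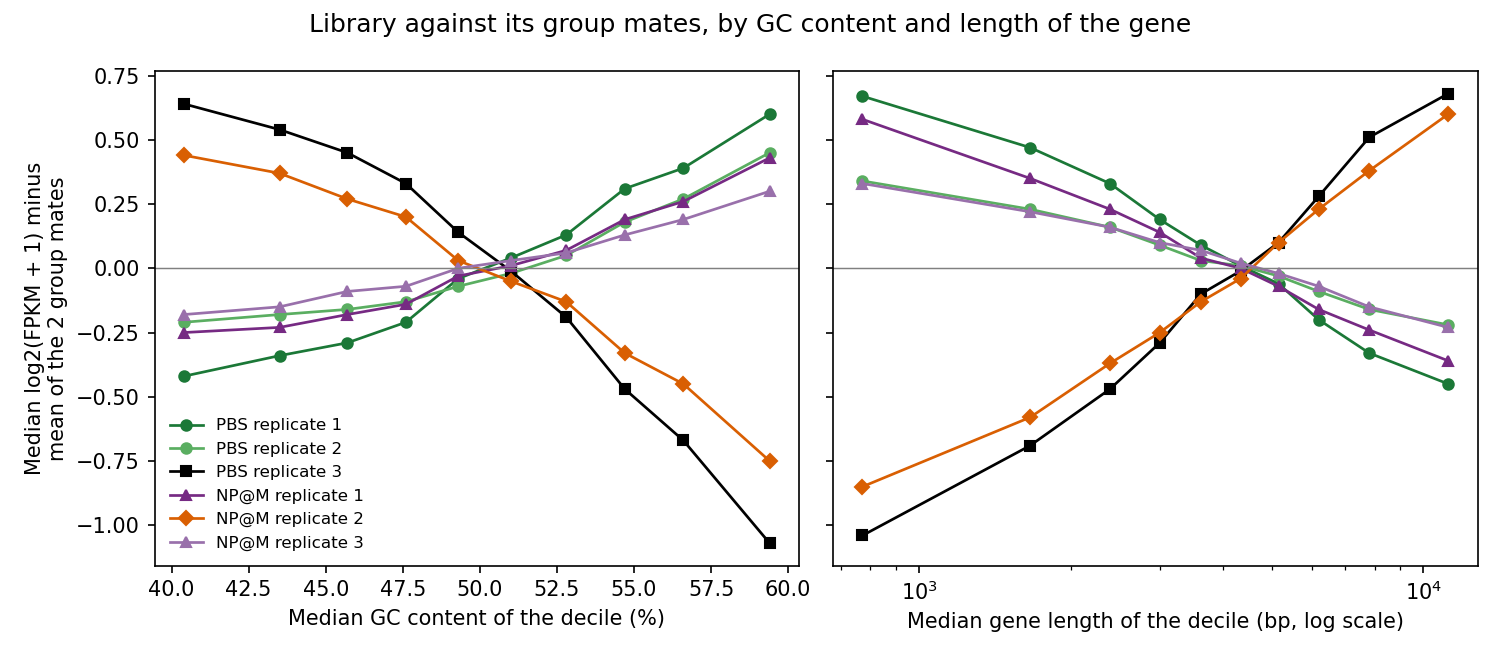
Each point is the median, over 1 decile of the tested genes, of log2(FPKM + 1) in a library minus the mean of its 2 group mates, against the median GC content (left) or the median gene length (right, log axis) of that decile. PBS replicate 3 and NP@M replicate 2 run from 0.64 and 0.44 in the decile poorest in GC to -1.07 and -0.75 in the richest, and the other 4 libraries run the opposite way because their mates include 1 of these 2.

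Between the groups these shifts largely cancelled, since each group held 1 such library. The median log2 difference of NP@M minus PBS lay between -0.02 and 0.03 in every GC decile and between -0.09 and 0.03 in every length decile. The spread within groups did not cancel. For Scand1 the standard error (SE) of the difference was 2 on the log2 scale, and 76 genes had an SE of at least 1. The median SE over all tested genes was 0.26 with all 6 libraries and 0.11 without the 2 that stood apart. For 5484 genes (71.7%) the 95% interval of the difference by limma lay within a 2-fold change in either direction. Without the 2 libraries this held for 7531 genes (98.5%), with 2 libraries left in each group. These libraries were set aside because they differed from their mates, so the smaller SE and narrower intervals without them followed from that choice.

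The question here is how cells given the particle without D differ from cells given the vehicle. By limma on log2(FPKM + 1), 0 of 7648 genes (0%) were called higher and 0 (0%) lower at an adjusted p under 0.05. At an unadjusted p under 0.05 there were 16 genes, 4 higher (0.0523%) and 12 lower (0.157%). Voom on the recovered reads called 0 genes, with 9 at an unadjusted p under 0.05. The 3 NP@M libraries all lay above the 3 PBS libraries in 132 genes (1.73%) and all below in 84 (1.1%), and 5 of these genes (0.0654%) differed by at least 2-fold. Without the 2 libraries that stood apart, limma again called 0 genes, with 446 (5.83%) at an unadjusted p under 0.05. A weighting of libraries by limma called 810 genes higher and 647 lower, but the weights had not converged and gave PBS replicate 2 a weight of 44.5 against 0.0762 for PBS replicate 3. With weights from the gene-by-gene method 0 genes were called.

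The genes lowest in NP@M by unadjusted p, among those with groups that do not overlap, were headed by an acute-phase gene and an immediate early gene, and the adjusted p by limma was 1 for every gene named here. Since genes were picked for separated groups and a small p, their separation, unadjusted p-values and intervals are descriptions. Saa3, an acute-phase apolipoprotein made by activated macrophages (ENSMUSG00000040026, GRCm38 chr7:46711998-46715700, minus strand), stood at 8.84, 7.97 and 7.33 FPKM in PBS and 4.26, 3.13 and 2.69 in NP@M. Every PBS library lay above every NP@M library, with PBS replicate 3 the lowest PBS library by a narrow margin and NP@M replicate 2 between its mates. The log2 difference was -1.07 (SE 0.19, unadjusted p = 0.00142, adjusted p = 1 by limma), with a 95% interval from -1.54 to -0.59, and -1.09 without those 2 libraries. Saa3 has paralogs in the same gene cluster that can share reads.

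Fos, the immediate early transcription factor of AP-1 (ENSMUSG00000021250, GRCm38 chr12:85473890-85477273, plus strand), stood at 52.3, 58.8 and 73.0 FPKM in PBS and 26.3, 23.4 and 33.7 in NP@M. The lowest PBS library, at 52.3, lay above the highest NP@M library, at 33.7. The log2 difference was -1.12 (SE 0.23, unadjusted p = 0.00246, adjusted p = 1 by limma), with a 95% interval from -1.67 to -0.57, and it was -0.87 without the 2 libraries that stood apart. Dusp1, an immediate early phosphatase that switches off MAP kinases, stood at 12.3, 13.3 and 9.69 FPKM in PBS and 9.07, 6.75 and 8.74 in NP@M (log2 difference -0.47, SE 0.20). Egr1, another immediate early factor, stood at 21.8, 22.8 and 12.9 in PBS and 12.3, 5.18 and 18.0 in NP@M. Its groups overlapped (log2 difference -0.76, SE 0.46), and NP@M replicate 2 was the lowest library. Fosb stood at no more than 0.126 FPKM in any of the 6 libraries and was not tested.

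The immediate early list as a whole lay close to 0. Of 24 listed genes 19 were tested and 0 were called, 9 had a difference above 0 and 10 below, and the median was -0.08, against 0.00 over all tested genes. The groups did not overlap in 2 of the 19, Fos and Dusp1, against 2.82% of all tested genes in either direction. Jund, Junb and Klf2 were among the members that were low in both libraries that stood apart, and 5 of the 19 lay at least 2-fold below both mates in PBS replicate 3 (against 14.6% of all tested genes) and 6 in NP@M replicate 2 (against 9.86%).

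Of the remaining genes that were low in NP@M with groups that do not overlap, some encode secreted or surface proteins of myeloid cells. Vegfa, an angiogenic growth factor induced by hypoxia, stood at 26.5, 24.3 and 26.5 FPKM in PBS and 18.5, 16.8 and 20.1 in NP@M, a log2 difference of -0.46 (SE 0.16, unadjusted p = 0.0296, adjusted p = 1 by limma). Cxcl16, a membrane-bound chemokine that also binds oxidised lipoprotein, stood at 9.13, 9.49 and 8.67 in PBS and 7.38, 5.55 and 6.48 in NP@M, a log2 difference of -0.44 (SE 0.17). For both genes the libraries of a group lay close together, and for Vegfa the gap between the groups was wider than the range within either. Fyb, an adaptor in integrin and immune receptor signalling, differed by -0.44 and Tm2d3 by -0.33. Rps27rt, a retrotransposed copy of a ribosomal protein gene, had a log2 difference of -1.52 (SE 0.55) with 240, 95.2 and 68.6 FPKM in PBS and 31.8, 30.5 and 65.8 in NP@M. Its groups were separated only by the gap between 68.6 and 65.8. Rpl14-ps1 (-0.69) and Dynlt1-ps1 (-0.45) are processed pseudogenes. All 3 copies are near-identical to other genes, so the assignment of their reads is uncertain.

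Of the genes given here with a difference in the other direction and groups that do not overlap, all but Rps26-ps1 and the microRNA gene Gm24366 differed by 0.41 or less on the log2 scale. Pdcd1lg2, which encodes PD-L2, stood at 6.86, 6.57 and 5.42 FPKM in PBS and 7.04, 8.83 and 7.85 in NP@M, a log2 difference of 0.29 (SE 0.17, unadjusted p = 0.14, adjusted p = 1 by limma). Its groups were separated by the gap between 6.86 and 7.04, and the difference was 0.13 without the 2 libraries that stood apart. Nov, a secreted matricellular protein, stood at 112, 116 and 82.2 FPKM in PBS and 134, 130 and 131 in NP@M (log2 difference 0.36, SE 0.20). Hcar2, a receptor for niacin and ketone bodies, stood at 31.2, 33.1 and 36.2 in PBS and 37.4, 49.4 and 39.1 in NP@M (0.31, SE 0.19). PBS replicate 3 was the lowest library for Nov, and NP@M replicate 2 the highest for Hcar2. Kdelr2, which returns chaperones to the endoplasmic reticulum, differed by 0.33, the spliceosome assembly factor gene Aar2 by 0.35, Cdca7 by 0.41, the connexin gene Gja5 by 0.32, Tmem129, a ubiquitin ligase of the endoplasmic reticulum, by 0.28 and the depalmitoylase gene Abhd17c by 0.27. Rps26-ps1, a processed pseudogene whose reads can come from its parent gene, differed by 1.01 (SE 0.32), at 3.11, 4.32 and 1.62 FPKM in PBS and 8.51, 7.28 and 4.97 in NP@M.

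**Figure D3:**
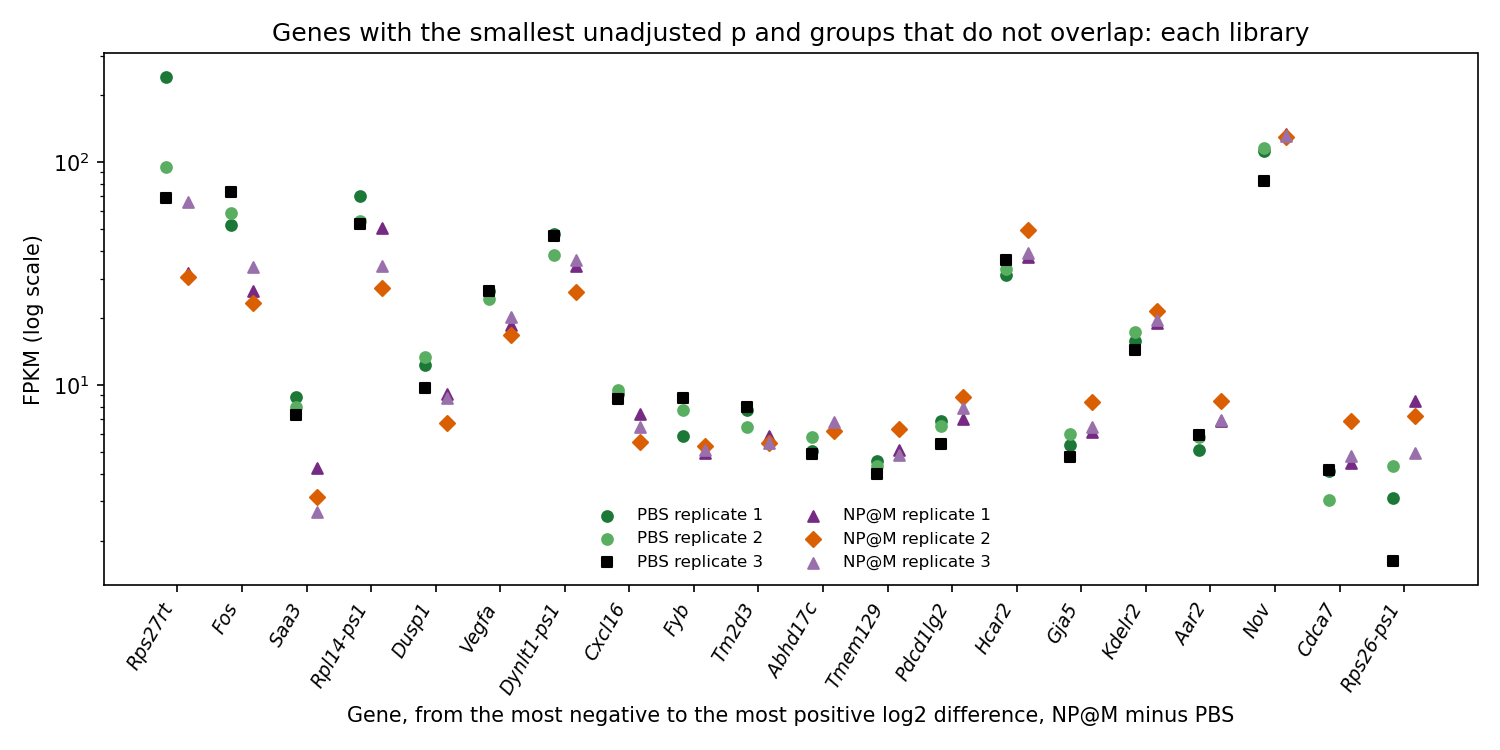
Each point is the FPKM (log axis) of 1 library for the 10 genes lower and 10 genes higher in NP@M that had the smallest unadjusted p, groups that do not overlap, a proper symbol and, in whichever group was higher, a mean of 5 FPKM or more. PBS libraries are at the left of each gene and NP@M libraries at the right, and the groups lie clearly apart for Fos (52.3 to 73.0 against 23.4 to 33.7) and Saa3 (7.33 to 8.84 against 2.69 to 4.26), while most other gaps are narrow.

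The smallest unadjusted p of all belonged to Gm24366, a microRNA gene of 86 bp (ENSMUSG00000093124, GRCm38 chr8:122471627-122471712, minus strand) that lies in an intron of Rnf166 on the same strand. It held 1, 1 and 0 reads in PBS replicates 1, 2 and 3 and 5, 12 and 10 in NP@M, which corresponds to 0.338, 0.305 and 0 FPKM against 1.65, 3.97 and 3.09. All NP@M libraries lay above all PBS libraries, on few reads. Since every PBS value was under 1 FPKM, the gene entered the tested set through its NP@M values alone and had to differ, so its p-values are a description. The log2 difference was 1.65 (SE 0.27, unadjusted p = 0.000894, adjusted p = 1 by limma). Gm24366 was the single gene called when all 12 libraries of the series entered the fit (adjusted p = 0.0338 by limma, log2 difference 1.65). Over the settings run the log2 difference ran from 1.32 without both libraries that stood apart to 3.44 with a pseudocount of 0.1, with adjusted p by limma from 0.00197 to 1. The labels name no step that selects small RNA, and reads from a mature microRNA, from its precursor and from unspliced Rnf166 cannot be told apart in these values.

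Cd274, which encodes PD-L1, the ligand in the series' title, did not separate the groups. It stood at 59.2, 74.3 and 121 FPKM in PBS and 68.9, 110 and 72.1 in NP@M. The highest libraries were again PBS replicate 3 and NP@M replicate 2, and the groups overlapped. The log2 difference was 0.01 (SE 0.34), with a 95% interval from -0.81 to 0.84 by limma. A change within that interval in either direction is therefore not excluded. The interval is not a limit of detection, since Fos, at -1.12 with an SE of 0.23, was not called either. Cd80, a ligand of CD28 and CTLA-4, stood at 5.97, 7.08 and 8.21 in PBS and 7, 10.1 and 7.85 in NP@M (log2 difference 0.20, SE 0.20). Icosl, the ligand of ICOS, stood at 3.71, 3.82 and 3.75 in PBS and 4.12, 3.97 and 4.57 in NP@M, a difference of 0.13 (SE 0.15) with groups that do not overlap. Of 13 tested checkpoint and costimulatory ligands 0 were called, 9 were above 0 and 4 below, and the groups did not overlap in 2 (against 2.82% of all tested genes). The list's median was 0.08, and 0.12 without the 2 libraries that stood apart.

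Gene groups of inflammation and interferon showed no call either. Of 19 tested NF-kB and inflammatory cytokine genes 13 had a difference above 0 and 6 below, with a median of 0.06 with all libraries and without the 2. Tnf stood at 19.0, 26.5 and 9.45 FPKM in PBS and 28.9, 26.4 and 31.4 in NP@M (log2 difference 0.73, SE 0.37, 95% interval from -0.18 to 1.64 by limma). PBS replicate 3 was the lowest library, and without the 2 libraries that stood apart the difference was 0.41. Il1b stood at 34.6, 57.4 and 70.9 in PBS and 46.9, 70.0 and 50.3 in NP@M (0.07, SE 0.32), and Ptgs2, the inducible cyclooxygenase gene, differed by 0.53 (SE 0.41). Ptgs2 was highest in NP@M replicate 2, at 7.81 FPKM against at most 3.10 in the other 5 libraries, and its difference was 0.19 without the 2 libraries that stood apart. Ccl12, a monocyte-attracting chemokine, stood at 8.66, 6.74 and 4 in PBS and 6.48, 1.85 and 7.97 in NP@M, and Ppbp, a neutrophil-attracting chemokine of platelets, at 256, 239 and 289 against 225, 196 and 237. The Ccl12 groups overlapped (-0.32, SE 0.50), while those of Ppbp did not (-0.25, SE 0.19).

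Of 18 tested type I interferon response genes 0 were called, but 17 had a difference below 0 and 1 above, where over all tested genes 3822 were below and 3826 above. The list's median was -0.18 with all 6 libraries and -0.02 without the 2 that stood apart, and it was 0.10 without PBS replicate 3 alone. Irf7, a transcription factor of that response, stood at 17.5, 15.4 and 30.6 FPKM in PBS and 15.2, 12.1 and 12.8 in NP@M (-0.57, SE 0.29). PBS replicate 3 was far above the other 5 libraries, and without the 2 libraries the difference was -0.22. Over the list, the median deviation of PBS replicate 3 from its mates was 0.58 and that of NP@M replicate 2 was 0.04. Isg15, a ubiquitin-like protein, stood at 7.77, 6.63 and 6.27 in PBS and 6.85, 3.16 and 3.73 in NP@M (-0.55, SE 0.27), and Ifi27l2a differed by -0.53 (SE 0.33). The groups of both genes overlapped with all 6 libraries. Without the 2 libraries the difference was -0.43 for Isg15 and -0.57 for Ifi27l2a. For Isg15, NP@M replicate 1 (6.85) still lay between PBS replicates 1 and 2 (7.77 and 6.63).

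Genes of particle uptake and digestion lay close to 0 with all libraries. Of 19 tested scavenger and phagocytic receptors 8 were above 0 and 11 below, with a median of -0.01, and 0.14 without the 2 libraries that stood apart. Msr1, the class A scavenger receptor, stood at 25.4, 31.4 and 75.2 FPKM in PBS and 31.7, 50.7 and 30.9 in NP@M (-0.09, SE 0.45). Mertk, a receptor for apoptotic cells, differed by -0.43 (SE 0.48), with 7.01 FPKM in PBS replicate 3 against 1.49 to 2.83 in the other 5 libraries. Marco, another scavenger receptor, stood at no more than 0.296 FPKM and was not tested. For 6 of the 19 receptors PBS replicate 3 lay at least 2-fold above both mates (against 5.48% of all tested genes). Of 25 lysosome and proton pump genes 8 were above 0 and 17 below, with a median of -0.03, and 0.10 without the 2 libraries. The 19 endocytosis genes had a median of 0.00, the 15 autophagy genes of -0.01 and the 13 lipid efflux and lipid droplet genes of 0.04. Abca1 differed by -0.19 (SE 0.68), and its groups overlapped.

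Stress and metal response genes showed small differences. Of 15 tested genes of the integrated stress and unfolded protein response 12 were above 0 and 3 below, with a median of 0.10, and 0.09 without the 2 libraries that stood apart. Asns, asparagine synthetase, differed by 0.27 (SE 0.22), Xbp1, which drives the unfolded protein response, by 0.23 (SE 0.20) and Herpud1, a component of endoplasmic reticulum protein disposal, by 0.16 (SE 0.17). The groups overlapped in each of these 3. Heat shock proteins had a median of -0.03 over 8 members and oxidative stress and metal response genes of 0.03 over 15. Mt1, metallothionein 1, stood at 98.6, 79.1 and 38.2 FPKM in PBS and 97.0, 32.7 and 114 in NP@M (0.09, SE 0.58), low in the same 2 libraries. Hmox1 was not found under that name in the deposited table.

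Ribosomal, respiratory chain and glycolysis genes were mostly below 0. Of 34 cytosolic ribosomal protein genes 26 were below 0 and 8 above, with 0 called, and the median was -0.12, and -0.35 without the 2 libraries that stood apart. Rps3 stood at 154, 120 and 72.7 FPKM in PBS and 107, 85.8 and 74.8 in NP@M (-0.32, SE 0.32), and Rpl11 differed by -0.40 (SE 0.46). For Rps3 the PBS libraries spanned a wider range than the gap between the group means. Of the 34 genes, 20 lay at least 2-fold below both mates in PBS replicate 3 (against 14.6% of all tested genes) and 13 in NP@M replicate 2 (against 9.86%). The 23 nuclear-encoded respiratory chain genes had a median of -0.07, with Cox4i1, a subunit of cytochrome c oxidase, at 162, 123 and 95.1 FPKM in PBS and 100, 75.4 and 76.1 in NP@M (-0.56, SE 0.26). The 10 mitochondrially encoded genes had a median of 0.05. Of 19 glycolysis and hypoxia response genes 15 were below 0, with a median of -0.07, and -0.13 without the 2 libraries. Pfkl, a phosphofructokinase gene, differed by -0.21 (SE 0.17). Gapdh, a glycolytic enzyme gene with many processed pseudogenes, was listed at only 4.93, 15.6 and 0.543 FPKM in PBS and 1.36, 1.72 and 1.25 in NP@M (-1.13, SE 0.82), so how its reads were assigned is uncertain.

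Growth, survival and cell identity lists also had 0 calls. The 12 G1/S genes had a median of 0.01 and the 15 G2/M genes of 0.02, with the spindle checkpoint kinase gene Bub1b at 0.22 (SE 0.16). The 14 transcriptional cyclin-dependent kinase and elongation genes had a median of 0.00. The 16 BCL2 family and apoptosis genes had a median of -0.02, with Mcl1, a short-lived survival factor, at 95, 97.2 and 125 FPKM in PBS and 93.5, 86.8 and 94.4 in NP@M (-0.20, SE 0.19). The 11 MHC class I genes had a median of 0.02 and the 5 MHC class II genes of -0.11. The 14 alternatively activated macrophage genes had a median of 0.09, with the lectin gene Mgl2 at 0.34 (SE 0.26). Granulocyte markers had a median of -0.14 over 16 members, and 0.00 without the 2 libraries. Their calprotectin gene S100a8 stood at 389, 305 and 226 FPKM in PBS and 295, 111 and 302 in NP@M (-0.48, SE 0.46), lowest in NP@M replicate 2. Monocyte and macrophage markers had a median of -0.10 over 15 members, and 0.05 without the 2 libraries. The platelet and megakaryocyte markers summed to 1100 to 1220 FPKM in 4 libraries and to 530 and 495 in PBS replicate 3 and NP@M replicate 2. That fall was mostly 1 gene, Pf4, platelet factor 4, at 229 and 286 there against 854 to 970 in the others. It was the only 1 of the 4 tested markers at least 2-fold below both mates in these 2 libraries. Ppbp stood at 289 and 196 there against 225 to 256 in the others, and Vwf was higher there, at 9.65 and 11.1 against 4.81 to 6.04.

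**Figure D4:**
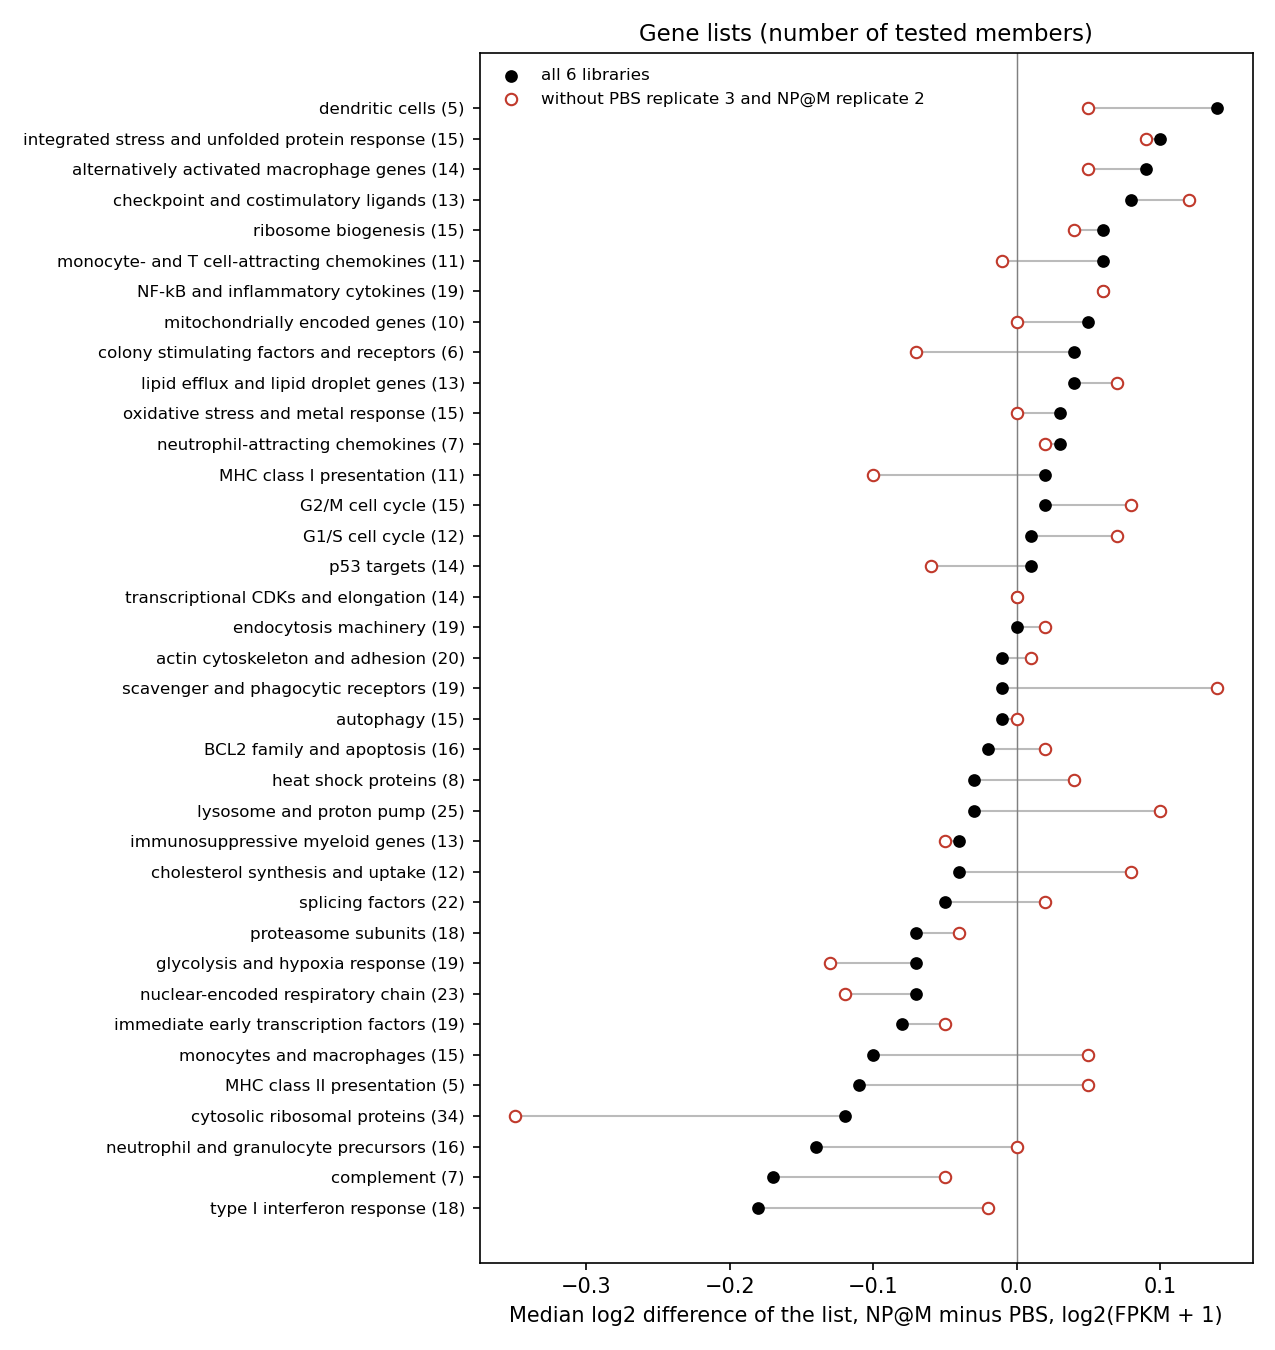
Each row is a gene list with at least 5 tested members (their number in brackets), and each point its median log2 difference of NP@M minus PBS, with all 6 libraries (filled) and without PBS replicate 3 and NP@M replicate 2 (open). All medians with 6 libraries lie between -0.18 and 0.14, and that of the ribosomal protein genes moves from -0.12 to -0.35 when these 2 libraries are left out.

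Among the 4 libraries that resembled each other, the groups could be compared more closely, although with 2 libraries each. NP@M replicates 1 and 3 both lay above PBS replicates 1 and 2 in 1325 of the 7648 genes (17.3%) and both below in 1111 (14.5%). Of 25 lysosome and proton pump genes 12 were above and 1 below, and of 19 scavenger and phagocytic receptors 9 were above and 0 below. Of 13 checkpoint and costimulatory ligands 7 were above and 1 below. Lists without a link to particle uptake leaned the same way. Of 12 G1/S genes 5 were above and 0 below, and of 12 cholesterol synthesis and uptake genes 5 and 1. Of 15 monocyte and macrophage markers 6 were above and 0 below. With only 4 libraries, genes can separate in this way without any effect of the particle. In the opposite direction, 10 of 19 glycolysis and hypoxia response genes were below and 0 above, 14 of 34 ribosomal protein genes were below and 2 above, and 8 of 23 respiratory chain genes were below and 1 above. No gene of these lists passed the test in that comparison, and the lists and their counts are given as a description. In the same 4 libraries the median log2 difference ran from 0.05 in the decile poorest in GC to -0.09 in the richest. It stood at -0.12 in the shortest decile, of 57 to 1270 bp. The ribosomal protein genes had a median length of 2040 bp. That is at the border of the decile of 1270 to 2030 bp, which stood at -0.06, and that of 2030 to 2700 bp, which stood at -0.01. The lysosome genes had a median length of 3730 bp, and the decile of 3310 to 3980 bp stood at 0.02. Members of both lists also lay in other deciles, so these values do not describe the whole lists. The part of these trends over GC content and length in the counts was not tested. Cd68, a lysosomal membrane glycoprotein of macrophages that was chosen after its values were seen, stood at 312 and 309 FPKM in PBS replicates 1 and 2 and 373 and 404 in NP@M replicates 1 and 3. In PBS replicate 3 it stood at 163 and in NP@M replicate 2 at 134, so that over all 6 libraries the groups overlapped.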

How the data were processed

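The authors deposited 1 table of FPKM values for 12 libraries, whose unit was inferred from the numbers because the header leaves it out. Value times gene length came in whole steps in each library (100% of the values within 0.05 of a whole step). This gave back read numbers of 14.4 M to 16.2 M per library over the genes in the table. Bowtie 0.12.2 and mm8 are listed in the submitters' processing notes, without their role. The counting and the scaling between libraries are not given in the sources used here. Of 11669 gene identifiers 11659 are in GENCODE M21, with equal coordinates for 11213, so positions are on GRCm38. GC content is that of the longest transcript in that release, and 7641 of the 7648 tested genes have one.

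Genes with at least 1 FPKM in at least 3 of the 6 libraries were tested. On these 6 libraries limma 3.58.1 (R 4.3.3) was run on log2(FPKM + 1) with its trend and robust options and 2-sided tests. A call needed a Benjamini-Hochberg adjusted p under 0.05 over all 7648 genes. Low genes have their fold changes understated by the pseudocount of 1. Counts and plots were made in Python 3.11.15 (numpy 2.4.6, pandas 2.3.3, matplotlib 3.10.9). The fit was tested on simulated counts in which no library stood apart, so that test does not show what the fit can call in these libraries. A library is compared with its mates by its gap to the nearer of the 2. The trend over GC content and length was a spline with 5 degrees of freedom in each, fitted per library.

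Up to 10 genes in each direction were named by the smallest unadjusted p, with groups that do not overlap, a proper symbol and, in whichever group was higher, a mean of 5 FPKM or more. Up to 3 genes per list, a fixed set (among them Fos, Cd274 and Gm24366) and, for PBS replicate 3 and NP@M replicate 2, up to 8 genes per direction with the widest gap to the nearer mate were named as well, and the text gives most of these. A few of them are not reported here. The members and lists were chosen with earlier results of these data known. The labels number libraries through the whole series and not within groups, and replicates are numbered here in the order of those labels.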

Additional observations from a re-analysis of the deposited data

How the results depend on the processing

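Under every setting except 2, limma called 0 genes in either direction. With all 12 libraries in the fit 1 gene was called higher, Gm24366. Library weights by restricted likelihood called 810 higher and 647 lower, with weights that had not converged. The count at an unadjusted p under 0.05 was 16 (0.209%) with all 6 libraries and 7 to 76 with 1 library left out (76, or 0.994%, without PBS replicate 3). It was 446 (5.83%) without both libraries that stood apart and 55 (0.72%) with the GC and length trend removed. With gene-by-gene weights it was 536 (7.01%), and without a filter on low values 80 (0.691% of 11582 genes). The trend removal and the gene-by-gene weights were chosen after seeing the data. The edgeR and DESeq2 alternatives were not run, because the deposited unit is FPKM. No paired analysis was possible because the labels' library numbers are not shared between the groups.

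Of genes at least 2-fold above both mates in PBS replicate 3 there were 419, against 8 at 4-fold, 174 with a filter of 5 FPKM, 797 with a pseudocount of 0.1, 646 with quantile normalization and 232 with the trend removed. Of the 1120 below, 254 passed 4-fold and 432 remained in number with the trend removed. For NP@M replicate 2 the 251 above became 3, 85, 512, 419 and 123 under the same settings. Its 754 below became 117 at 4-fold, 1148 with the pseudocount of 0.1 and 286 with the trend removed.

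The direction turned for some genes, among them Ptgs2, Mertk and Ccl12, with differences of 0.53, -0.43 and -0.32 with all 6 libraries. With weights by restricted likelihood Cd274 stood at -0.04, Il1b at -0.19, Ccl12 at 0.16 and Ptgs2 at -0.11, and with gene-by-gene weights Il1b stood at -0.04, Msr1 at 0.05 and Ccl12 at 0.04. Without both libraries that stood apart Msr1 stood at 0.14. With 1 library left out, Cd274 ran from -0.21 to 0.30, Il1b from -0.21 to 0.29, Mt1 from -0.30 to 0.64, Msr1 from -0.40 to 0.37, Abca1 from -0.74 to 0.38, Ccl12 from -0.64 to 0.18 and Mertk from -0.75 to 0.09. Over all settings run, the log2 difference of Fos stayed between -1.26 and -0.82 and that of Saa3 between -1.26 and -0.95, with adjusted p from 0.00263 to 1 and from 0.00197 to 1, under 0.05 with the unconverged weights only. The median of the ribosomal protein genes ran from -0.67 to 0.14 and that of the interferon genes from -0.26 to 0.10. The cause of these shifts was not tested. With 3 libraries per group, the 95% interval of the median gene reached 0.63 on either side of its log2 difference. It reached 0.25 without both libraries that stood apart, which were set aside for differing from their mates.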

Other observations

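The order of genes in the deposited table was related to this comparison. Among the first 50 rows, 86% of the genes had PBS and NP@M groups that did not overlap, and among rows 51 to 100 it was 58%. In rows 101 to 150 it was 26%, in rows 151 to 1000 it was 4%, and in the remaining 10669 rows 3.24%. Most of the first 100 genes were very low, with a median of 0.121 FPKM over the first 50, so that 7 of those 50 and 3 of the next 50 were tested here. How the table was ordered is not given in the sources used here.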
